A study of Rattus norvegicus with 12 samples.

Results

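The urea cycle and the enzymes that feed and flank it were followed in the livers of rats fed wakame, an edible brown seaweed. The set held 10 genes: Cps1, Otc, Ass1, Asl and Arg1 of the urea cycle, Glul and Gls2 of glutamine synthesis and breakdown, and Oat, Hal and Sds, which release nitrogen from ornithine, histidine and serine. They were taken by name, as every probe set (a group of short probes aimed at a single transcript) whose only gene symbol in the array's annotation was one of these. The 10 genes had 14 probe sets among 31042 that were not manufacturer's controls. A probe set counted as measured where its standard deviation (SD) over the 12 arrays was above 0.01 log2, which held for 13 of the 14 and for 3240 of the 31042. All 10 genes kept at least 1 measured probe set. The probe set left out, 1367633_at of Glul, stood at 7.53 log2 on every array.

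Male Sprague Dawley rats entered at 4 weeks of age, had 1 week to settle, ate a purified diet for 28 days and were 9 weeks old when the liver was taken. The control group ate AIN-93G diet with 20% casein and 7% fat, and the other groups ate it with 0.1% or with 1% wakame powder added. Each diet was fed to 6 rats, 3 to a cage, and 4 livers per diet were put on arrays, 1 array per rat. Which rats shared a cage, the hour of killing and whether the rats were fasted were not given in the sources used here, and an effect of the diet cannot be told apart from one of the cage. No nitrogen intake, plasma ammonia or enzyme activity was measured here, and only RNA is described.

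Amino acid breakdown releases ammonia, which is toxic, and the liver turns it into urea. Cps1 and Otc work inside mitochondria and make carbamoyl phosphate and citrulline, and Ass1, Asl and Arg1 in the cytosol carry citrulline through to urea and ornithine. The work is divided along the liver lobule: hepatocytes near the portal vein hold the urea cycle, the liver glutaminase Gls2 and much of amino acid breakdown, and a thin layer around the central vein holds glutamine synthetase, Glul, which takes up the ammonia that is left. The RNA of these enzymes is known to follow protein intake, glucagon and glucocorticoids in rats. In whole liver, more hepatocytes of a zone and more RNA per hepatocyte cannot be told apart.

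The 12 arrays had almost the same median, 6.59 log2. Over the 3240 varying probe sets, arrays of the same diet correlated at 0.911 to 0.961 and arrays of different diets at 0.887 to 0.957. Of 8 hepatocyte markers, 7 were found under a single symbol, and their brightest probe sets averaged 12.92 to 14.61 log2, well above the median of all values. Of the markers of other cell types, 0 of 6 varied for cholangiocytes, 5 of 8 for Kupffer cells, 5 of 8 for stellate cells, 2 of 6 for endothelial cells and 1 of 6 for lymphocytes. The mean of the Kupffer markers lay from 8.66 to 9.12 log2 in 1% wakame livers and from 8.58 to 9.17 in control livers. That of the stellate markers lay from 8.24 to 8.81 in 1% wakame livers, from 8.03 to 8.63 in 0.1% wakame livers and from 8.21 to 8.58 in control livers, with median differences from control of 0.21 log2 with 1% and 0.17 with 0.1% wakame. The 2 varying erythroid markers had a median difference of 0.09 with 1% and 0.28 with 0.1% wakame. The part of these cells in the results below was not tested. The number of arrays, 4 per diet, limits the precision, and without detection calls or background values it is not known which low values exceed background.

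None of the 13 member probe sets passed an adjusted p of 0.05 (limma, Benjamini-Hochberg over the 3240 varying probe sets) in any of the 3 comparisons. Between 1% wakame and control the call rate over all 3240 was 1.67%, between 0.1% wakame and control 0.0617%, and between 1% and 0.1% wakame 0%. At an unadjusted p under 0.05, 2 of 13 member probe sets stood out between 1% wakame and control, both of Glul and both higher, where 18.5% of all varying probe sets did, 8.40% higher and 10.1% lower. The same count was 0 of 13 between 0.1% wakame and control, against 11.5% of all (4.72% higher, 6.73% lower), and 0 of 13 between 1% and 0.1% wakame, against 6.76% (3.70% higher, 3.06% lower). Groups without overlap were 1 of 13 for 1% wakame against control, 0 of 13 for 0.1% wakame against control and 0 of 13 for 1% against 0.1% wakame, where 11.3%, 5.86% and 3.77% of all varying probe sets were without overlap. The median member difference was 0.03 log2 for 1% wakame against control, 0.17 for 0.1% wakame against control and −0.09 for 1% against 0.1% wakame. Over all varying probe sets the medians were −0.02, −0.02 and −0.0038 in the same order of comparisons. Any 2 of the 3 comparisons share arrays, and the third is the first minus the second, so they are not separate evidence.

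**Figure D1:**
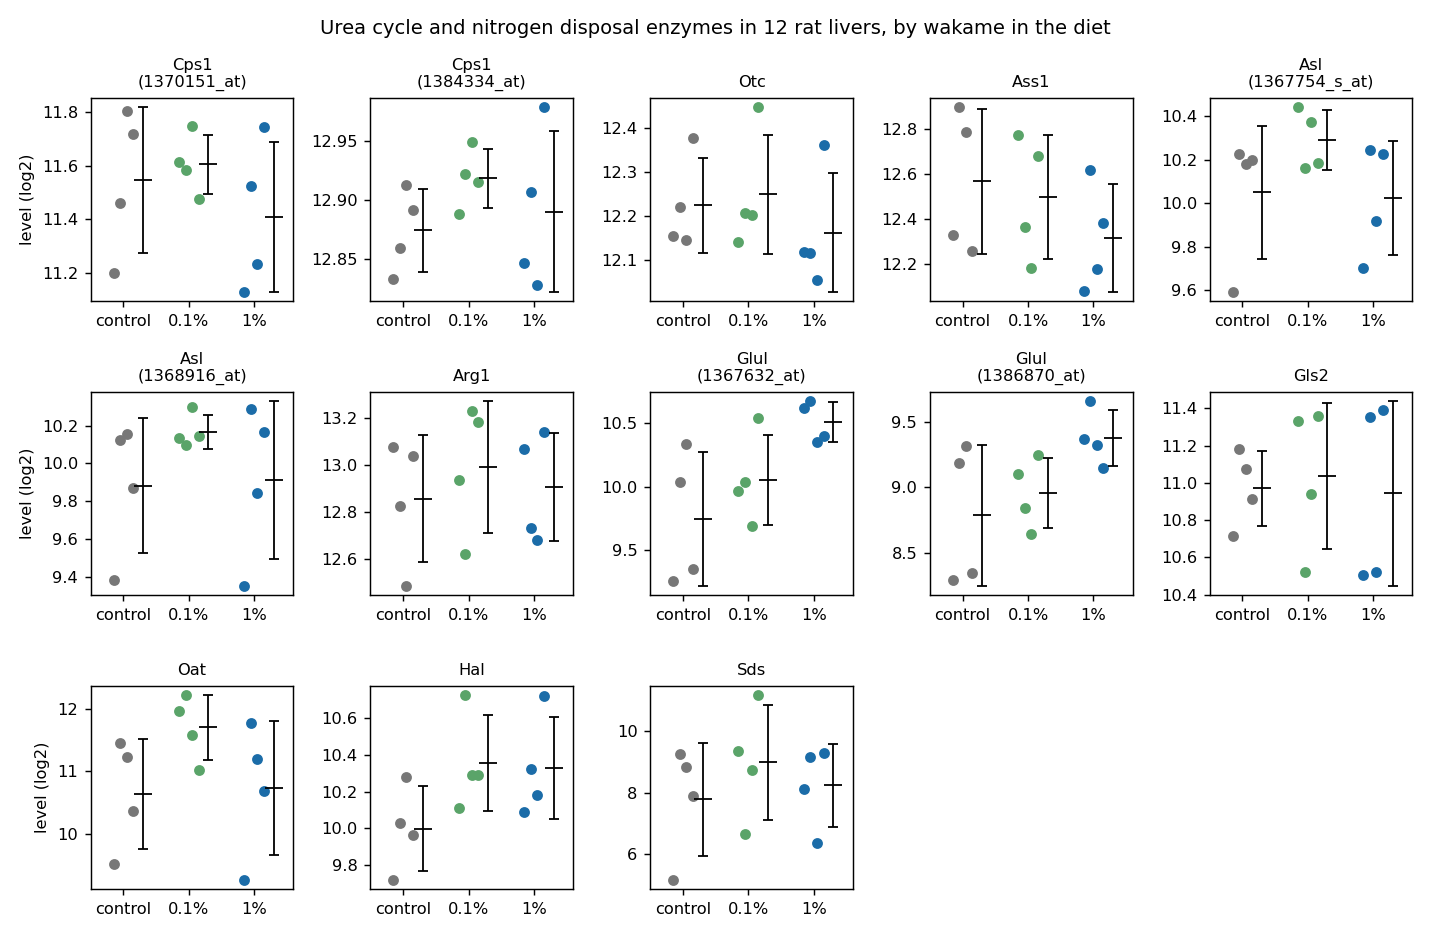
Level of each measured probe set (log2, own scale in each panel) in 12 livers, by wakame in the diet (control, 0.1%, 1%). Points are livers in replicate order, bars are mean ± SD (n = 4 per diet), and only for Glul 1367632_at do all 4 livers on 1% wakame, from 10.36 upward, lie above all 4 control livers.

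Glul encodes glutamine synthetase, the enzyme that joins ammonia to glutamate. Its probe set 1367632_at read 9.25, 10.04, 10.34 and 9.35 log2 in control livers, 9.96, 10.03, 9.69 and 10.54 in 0.1% wakame livers and 10.62, 10.68, 10.36 and 10.40 in 1% wakame livers, in replicate order. Every liver on 1% wakame lay above every control liver, narrowly so above control 3, and the 0.1% group overlapped both. It averaged 10.51 ± 0.16 log2 in 1% wakame livers and 9.74 ± 0.53 in control livers (SD, n = 4 each). The difference was 0.77 ± 0.25 log2 (SE), a fold of 1.71, with a 95% interval from 0.22 to 1.32, and it did not pass over all varying probe sets (limma, adjusted p = 0.147). Groups that did not overlap were found in 11.3% of all varying probe sets in this comparison, with 5.22% higher and 6.05% lower with 1% wakame.

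The second measured probe set of Glul, 1386870_at, read 8.30, 9.19, 9.31 and 8.35 log2 in control livers, 9.10, 8.84, 8.65 and 9.25 in 0.1% wakame livers and 9.37, 9.66, 9.32 and 9.15 in 1% wakame livers. Here 1% wakame and control overlapped, and control 1 and control 4 were the lowest livers on both probe sets. The difference of 1% wakame from control was 0.59 ± 0.24 log2 (limma, adjusted p = 0.238). For 0.1% wakame against control the 2 probe sets stood at 0.31 ± 0.25 and 0.17 ± 0.24 log2 (adjusted p = 0.690 and 0.844), and for 1% against 0.1% wakame at 0.46 ± 0.25 and 0.41 ± 0.24 (adjusted p = 0.809 and 0.824). The order of the means was thus control, 0.1% and 1% on both probe sets, and no neighbouring pair passed the test.

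The Glul difference depended in size on single control livers, and for 1 of 2 measures of RNA integrity 3 of 4 livers on 1% wakame lay above the control range. On 1367632_at it was 0.61 log2 without control 1 and 0.97 without control 3. The Gapdh difference between 3-prime and 5-prime control probe sets, which grows as RNA is less intact, averaged 1.21 ± 0.16 log2 in 1% wakame livers and 1.05 ± 0.01 in control livers (SD, n = 4 each). The same measure on Actb averaged 2.38 ± 0.07 in 1% wakame livers and 2.31 ± 0.13 in control livers, and these overlapped, with control 2 the highest at 2.49. With the Gapdh difference as a covariate, chosen after the data were seen, Glul stood at 0.64 log2 on 1367632_at (limma, adjusted p = 0.486) and 0.36 on 1386870_at (adjusted p = 0.715). Its part in the result was not tested further.

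Gls2, the liver glutaminase that frees ammonia from glutamine beside Cps1, read 10.71, 11.18, 11.07 and 10.92 log2 in control livers, 11.33, 10.52, 10.94 and 11.36 in 0.1% wakame livers and 10.51, 11.35, 10.52 and 11.39 in 1% wakame livers. The diets overlapped throughout, and the 1% group fell into a low pair (replicates 1 and 3) and a high pair (2 and 4). The means were 10.94 ± 0.50 log2 in 1% wakame livers and 10.97 ± 0.20 in control livers, a difference of −0.03 log2 with a 95% interval from −0.59 to 0.53 (limma, adjusted p = 0.971). For 0.1% wakame against control it was 0.07 log2 (adjusted p = 0.957).

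Promoters are printed for 3 members that bracket the set: Glul, whose diets lay furthest apart for their spread, Otc, the steadiest of the genes with a single probe set, and Oat, which varied widely between livers. Of the 10 members, 7 had a promoter in the RefSeq table of build GRCr8, with 9 start sites, each given as 250 bases before the start and 50 after it, 5′ to 3′ on the gene's own strand. Capitals mark matches, on either strand, to 7 short motifs of known factors, and no marked matches overlap. Glul has 2 start sites.
Glul start 1, chr13:68519250-68519549, plus strand: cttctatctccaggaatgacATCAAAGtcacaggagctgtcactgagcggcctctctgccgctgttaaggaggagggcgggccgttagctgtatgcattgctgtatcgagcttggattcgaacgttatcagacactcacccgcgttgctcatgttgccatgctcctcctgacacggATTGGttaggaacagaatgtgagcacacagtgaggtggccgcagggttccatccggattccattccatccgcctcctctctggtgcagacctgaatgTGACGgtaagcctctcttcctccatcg
Glul start 2, chr13:68575816-68576115, plus strand: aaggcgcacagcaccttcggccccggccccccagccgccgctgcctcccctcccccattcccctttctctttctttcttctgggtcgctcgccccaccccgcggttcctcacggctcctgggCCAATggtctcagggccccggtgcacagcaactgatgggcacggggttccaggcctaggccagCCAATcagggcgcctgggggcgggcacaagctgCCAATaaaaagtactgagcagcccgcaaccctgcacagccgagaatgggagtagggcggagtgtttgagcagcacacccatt
Otc, chrX:15202424-15202723, minus strand: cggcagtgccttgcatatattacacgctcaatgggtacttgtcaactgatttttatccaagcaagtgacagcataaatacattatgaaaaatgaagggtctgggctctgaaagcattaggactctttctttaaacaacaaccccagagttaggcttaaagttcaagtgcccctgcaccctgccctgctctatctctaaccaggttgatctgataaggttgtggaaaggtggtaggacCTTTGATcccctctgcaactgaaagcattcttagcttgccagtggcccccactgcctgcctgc
Oat, chr1:196797705-196798004, minus strand: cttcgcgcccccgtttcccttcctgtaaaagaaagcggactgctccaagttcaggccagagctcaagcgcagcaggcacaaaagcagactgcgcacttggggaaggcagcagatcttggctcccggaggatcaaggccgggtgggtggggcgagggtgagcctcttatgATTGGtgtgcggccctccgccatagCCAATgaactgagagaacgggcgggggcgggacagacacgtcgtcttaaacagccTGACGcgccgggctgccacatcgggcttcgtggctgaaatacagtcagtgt
Glul start 1 held CTTTGAT at −230, CCAAT at −74 and TGACG at 23 bases from the start, and start 2 held CCAAT at −128, −65 and −32. Start 2 had no match to CTTTGAT, and which of the 2 starts these livers use was not measured. Otc held CTTTGAT at −13 and Oat held CCAAT at −81 and −56 and TGACG at −1. The shares below are of 33469 rat promoters of the same length. The CCAAT box, searched as CCAAT, is held by 37.5% of them. The core of the cAMP response element, searched as TGACG, is held by 21.2%. The site of the TCF/LEF factors, the partners of beta-catenin, was searched as CTTTGAT, which 3.63% hold. Its other form was searched as CTTTGAA, which 5.40% hold. The TATA box was searched as TATAAA, which 14.2% hold. A glucocorticoid receptor element was searched by its core TGTTCT, which 20.7% hold. The site of C/EBP factors was searched as TTGCNNAA, which 10.6% hold. These 4 last motifs had no match in the printed promoters. A match is a description of these letters and not a binding site.

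The 5 urea cycle enzymes, with 7 measured probe sets, showed small differences. Against control, 3 lay higher and 4 lower with 1% wakame, by −0.25 to 0.05 log2 (limma, lowest adjusted p = 0.501), where 44.9% of all varying probe sets lay higher. With 0.1% wakame 6 of 7 lay higher than control, by −0.07 to 0.29 log2 (lowest adjusted p = 0.642), where 44.1% of all lay higher. All 7 lay lower with 1% than with 0.1% wakame, from −0.27 to −0.03 log2 with a median of −0.19 (lowest adjusted p = 0.826, lowest unadjusted p = 0.135), where 49.0% of all varying probe sets lay higher. This count and the 6 of 7 rest on the same 0.1% wakame livers, and Cps1 and Asl each have 2 of the 7 probe sets. The 95% intervals of the 7 differences from control stayed between −0.66 and 0.50 log2 for 1% wakame and between −0.48 and 0.76 for 0.1% wakame, which are the sizes these arrays leave possible.

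Cps1, the mitochondrial entry step that fixes ammonia, read 12.83, 12.86, 12.91 and 12.89 log2 in control livers, 12.89, 12.92, 12.95 and 12.91 in 0.1% wakame livers and 12.85, 12.91, 12.83 and 12.98 in 1% wakame livers on probe set 1384334_at. This was the narrowest range of the set, 0.15 log2 over 12 livers, with all diets overlapping. The difference of 1% wakame from control was 0.02 ± 0.04 log2 and that of 0.1% wakame from control 0.04 ± 0.04 (limma, adjusted p = 0.894 and 0.720). Its other probe set, 1370151_at, ranged over 0.67 log2 and stood at −0.14 ± 0.16 and 0.06 ± 0.16 in these comparisons (adjusted p = 0.704 and 0.922).

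Otc, which joins carbamoyl phosphate to ornithine, read 12.15, 12.22, 12.15 and 12.38 log2 in control livers, 12.14, 12.21, 12.20 and 12.45 in 0.1% wakame livers and 12.12, 12.12, 12.05 and 12.36 in 1% wakame livers. Replicate 4 was the highest liver of each diet, although the numbers were not said to pair the rats. The difference was −0.06 log2 for 1% wakame against control, with a 95% interval from −0.25 to 0.13, and 0.03 for 0.1% wakame against control, with an interval from −0.17 to 0.22 (limma, adjusted p = 0.772 and 0.946).

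Ass1, which condenses citrulline with aspartate, read 12.33, 12.90, 12.79 and 12.26 log2 in control livers, 12.77, 12.37, 12.18 and 12.68 in 0.1% wakame livers and 12.08, 12.62, 12.18 and 12.38 in 1% wakame livers. It was the urea cycle probe set that lay lowest against control with 1% wakame, at −0.25 ± 0.19 log2 (limma, adjusted p = 0.501), with all diets overlapping. The difference was −0.14 without control 2, and −0.44 with the Gapdh covariate (adjusted p = 0.478). With 0.1% wakame it was −0.07 ± 0.19 (adjusted p = 0.923).

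Asl, which splits argininosuccinate into arginine and fumarate, read 9.59, 10.23, 10.18 and 10.20 log2 in control livers, 10.44, 10.16, 10.37 and 10.19 in 0.1% wakame livers and 9.70, 10.25, 9.92 and 10.22 in 1% wakame livers on probe set 1367754_s_at. Control 1 lay far below the other control livers, and replicate 1 was also the lowest of the 1% group. The second probe set, 1368916_at, put the same livers lowest, at 9.38 in control 1 and 9.35 in 1% wakame 1, where the other 10 lay between 9.85 and 10.30. For 0.1% wakame against control the 2 probe sets stood at 0.24 ± 0.17 and 0.29 ± 0.21 log2 (limma, adjusted p = 0.642 and 0.685), and without control 1 at 0.09 and 0.12. For 1% wakame against control they stood at −0.03 ± 0.17 and 0.03 ± 0.21 (adjusted p = 0.960 and 0.965).

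Arg1, which releases urea from arginine, read 13.08, 12.82, 12.49 and 13.04 log2 in control livers, 12.94, 12.62, 13.23 and 13.18 in 0.1% wakame livers and 13.07, 12.73, 12.68 and 13.14 in 1% wakame livers. The diets overlapped fully. The difference was 0.05 ± 0.17 log2 for 1% wakame against control and 0.14 ± 0.17 for 0.1% wakame against control (limma, adjusted p = 0.927 and 0.821).

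**Figure D2:**
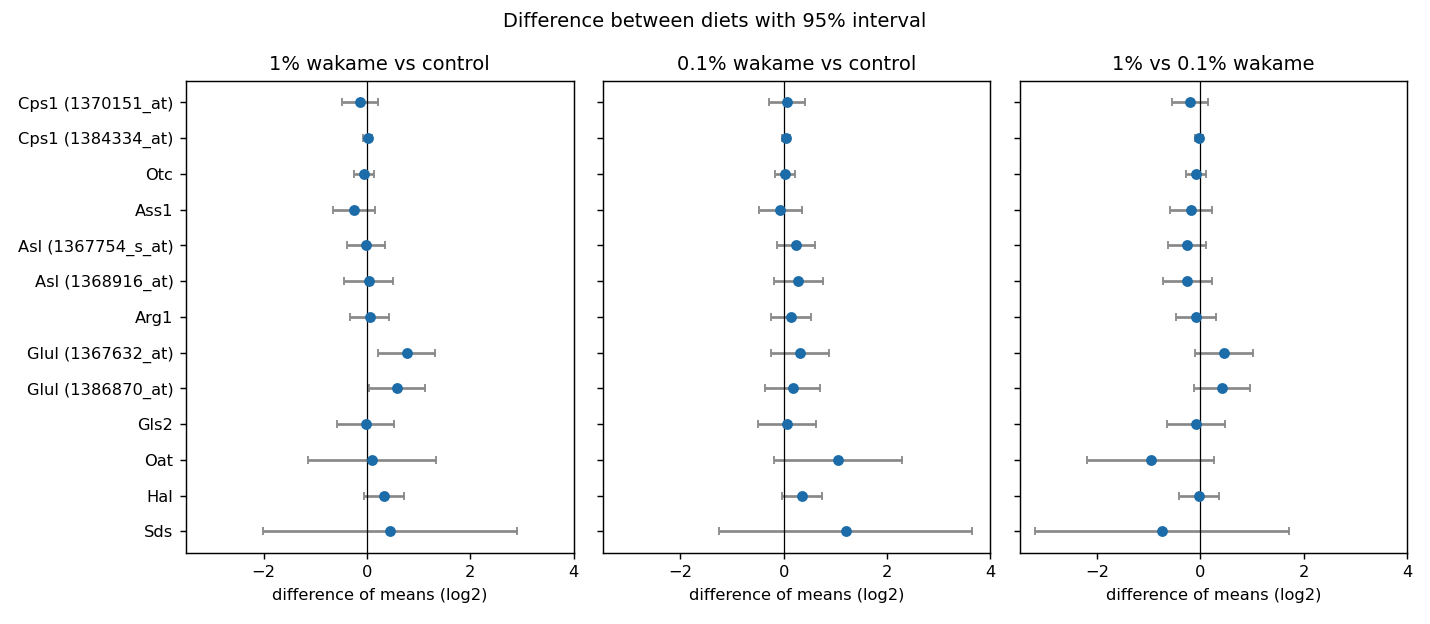
Difference of mean log2 level between diets for the 13 measured probe sets, in 3 panels (1% wakame minus control, 0.1% wakame minus control, 1% minus 0.1% wakame). Points are differences and lines 95% intervals from limma (n = 4 per diet); the intervals of the 2 Glul probe sets in the first panel, from 0.22 to 1.32 and from 0.05 to 1.12, are the ones that leave out 0.

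Sds, serine dehydratase, which turns serine into pyruvate and ammonia and is known in rats for its induction by protein-rich diets and glucagon, varied most of the set. It read 5.18, 9.26, 8.82 and 7.88 log2 in control livers, 9.34, 6.66, 8.74 and 11.17 in 0.1% wakame livers and 8.14, 9.17, 6.36 and 9.27 in 1% wakame livers. The range from control 1 to 0.1% wakame 4 was 5.99 log2, a fold of 63.5, and control 1 and 1% wakame 3 lay below the median of all values, so the lowest levels have no measured background behind them. Its within-diet SD was 1.69 log2, higher than in 99.3% of the 3240 varying probe sets, whose median was 0.21.

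The diets did not separate for Sds. The mean was 8.23 ± 1.35 log2 in 1% wakame livers and 7.78 ± 1.83 in control livers (SD, n = 4 each), a difference of 0.45 ± 1.11 log2 (SE; limma, adjusted p = 0.896). Without control 1 that difference was −0.42 log2. The mean of 8.98 ± 1.86 in 0.1% wakame livers differed from control by 1.20 log2 (adjusted p = 0.752), and by 0.33 without control 1.

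Oat, ornithine aminotransferase, which links ornithine with glutamate and proline, read 9.53, 11.45, 11.23 and 10.36 log2 in control livers, 11.97, 12.22, 11.58 and 11.03 in 0.1% wakame livers and 9.27, 11.77, 11.20 and 10.69 in 1% wakame livers. In the 0.1% group 3 of 4 livers lay above every control liver, and the 1% group spanned the control range. The difference of 0.1% wakame from control was 1.06 ± 0.56 log2, a fold of 2.08, with a 95% interval from −0.18 to 2.29 (limma, adjusted p = 0.526), and it was 0.69 without control 1. For 1% wakame against control it was 0.09 ± 0.56 (adjusted p = 0.960), and −0.28 without control 1 or 0.58 without 1% wakame 1. For 1% against 0.1% wakame it was −0.97 ± 0.56 (adjusted p = 0.824).

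Hal, histidase, which removes the amino group of histidine, read 9.72, 10.03, 10.28 and 9.96 log2 in control livers, 10.11, 10.73, 10.29 and 10.29 in 0.1% wakame livers and 10.09, 10.32, 10.18 and 10.72 in 1% wakame livers. Both wakame groups lay above 3 of the 4 control livers, and control 3 overlapped them. The difference from control was 0.33 ± 0.17 log2 with 1% wakame and 0.36 ± 0.17 with 0.1% wakame (limma, unadjusted p = 0.0839 and 0.0647, adjusted p = 0.334 and 0.476). With the Gapdh covariate it was 0.48 and 0.38 log2 (adjusted p = 0.405 and 0.457). Among the 3 enzymes of ornithine, histidine and serine breakdown, Hal had the smallest within-diet SD, 0.26 log2.

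The 10 enzymes also varied between livers of the same diet. On the brightest measured probe set of each gene, control 1 was the lowest of the 4 control livers for 7 of 10 genes and the highest for 1, Arg1. In the 1% group, replicates 1 and 3 were each lowest for 5 genes and highest for 0, and replicates 2 and 4 were highest for 4 and 6. In the 0.1% group the lowest places were spread as 3, 4, 2 and 1 over replicates 1 to 4. These places were not counted over all varying probe sets, so whether they are particular to the 10 genes is not known.

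**Figure D3:**
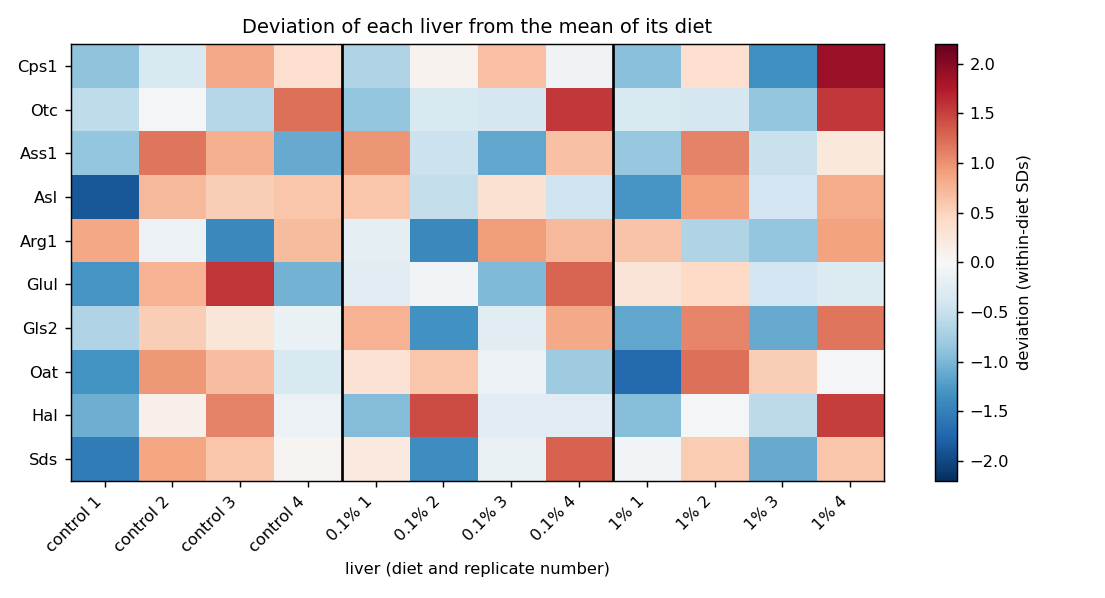
Deviation of each liver (columns, by diet and replicate number) from the mean of its diet for the 10 genes (rows, brightest measured probe set), in units of the gene's within-diet SD, red above and blue below. Control 1 is blue in most rows, and Arg1 is red there.

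Pairs of the 10 genes were compared over the 12 livers as a description without a test, since neighbouring enzymes share livers, arrays and normalization. Pearson's r ran from −0.46 to 0.80 over 45 pairs, and 38 were positive. Gls2 and Sds gave r = 0.80 and Spearman's rho = 0.86, with r = 0.82 after subtraction of diet means and 0.84 without the 2 livers farthest from the median of Gls2. Cps1 and Hal gave r = 0.76 and rho = 0.76, and 0.75 without the 2 farthest livers on Cps1. Each gene was taken on its brightest measured probe set, which for Cps1 was 1384334_at, with a range of only 0.15 log2. The other Cps1 probe set, 1370151_at, with a range of 0.67 log2, was not compared, so this relation holds for 1384334_at alone. Asl and Oat gave r = 0.79 and rho = 0.59 but r = 0.30 without the 2 farthest livers on Asl, so their relation rests on those livers. Arg1 had a negative r in 5 of its 9 pairs, from −0.05 with Asl to −0.46 with Oat (rho = −0.43), and a positive r of 0.53 with Otc (rho = 0.45).

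Over all varying probe sets with a single symbol, the genes most like each enzyme, on its brightest measured probe set, across the 12 livers were found by Pearson's r. For Glul they were Slco2a1, a prostaglandin transporter (r = 0.89, rho = 0.81), Egr1, an immediate early transcription factor (0.89 and 0.76), and Nudt16 (0.87 and 0.89). For Sds they were Adss1, of AMP synthesis (r = 0.84, rho = 0.90), Ttc36 (0.84 and 0.85) and Rarres1 (0.82 and 0.85). For Oat the nearest was Apom, an apolipoprotein (r = 0.92, rho = 0.81), and for Hal it was Avpr1a, the vasopressin receptor of hepatocytes (0.92 and 0.77). Each value was picked as the highest among all varying genes, so it carries no test.

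Other enzymes had other neighbours. Asl was most like Pde4b, a cAMP phosphodiesterase (r = 0.92, rho = 0.78), Got1, which supplies aspartate to the cycle (0.87 and 0.78), and Slc25a15, the mitochondrial ornithine carrier (0.84 and 0.41, and r = 0.52 without the 2 farthest livers). Arg1 was most like Hamp, the iron hormone hepcidin (r = 0.94, rho = 0.90), and the respiratory chain subunits Cox6b1 (0.93 and 0.95) and Ndufa2 (0.88 and 0.93). Gls2 was nearest to Aox1 (r = 0.81, rho = 0.66), Cps1 to Sat1, which acetylates polyamines (0.85 and 0.85), Otc to Ccn2, a matricellular growth factor (0.85 and 0.80), and Ass1 to Pard6g, a polarity protein (0.85 and 0.84).

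Beyond the 10 enzymes, 8 lists written from general knowledge, much of it from mice and rats, covered helpers of the urea cycle, amino acid enzymes and transporters, polyamine synthesis, genes of the liver zones and regulators. In each list 0 members passed the adjusted threshold in each of the 3 comparisons. The list of carriers and helper enzymes had 6 of 13 genes varying, with 10 probe sets. With each gene counted once, 4 of 6 lay higher than control with 1% wakame (median 0.09 log2) and 5 of 6 with 0.1% wakame (median 0.09). Counted by probe set, of which 4 are of Slc25a15, the mitochondrial ornithine carrier, and 2 of Mdh1, it was 4 of 10 (median −0.04) and 8 of 10 (median 0.08). Over all varying probe sets it was 44.9% and 44.1%. Mdh1, the cytosolic malate dehydrogenase that handles the fumarate carbon after its hydration, was at −0.27 ± 0.09 log2 with 1% wakame and −0.23 ± 0.09 with 0.1% wakame (limma, adjusted p = 0.143 and 0.357), and its second probe set at −0.50 ± 0.26 and −0.20 ± 0.26 (adjusted p = 0.331 and 0.824). Slc25a22, a mitochondrial glutamate carrier, was at 0.42 ± 0.17 with 0.1% wakame (adjusted p = 0.370), and the 0.1% wakame and control livers did not overlap there, as in 5.86% of all varying probe sets (2.50% higher, 3.36% lower with 0.1% wakame).

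Of 10 enzymes that move amino nitrogen, 8 varied, with 10 probe sets, and none passed the test. With each gene counted once, 6 of 8 lay higher than control with 1% wakame (median 0.15 log2) and 8 of 8 with 0.1% wakame (median 0.17), where 44.9% and 44.1% of all varying probe sets lay higher. Got1, the cytosolic aspartate aminotransferase, and Aspg lay lower with 1% wakame, at −0.40 and −0.05 log2. An unadjusted p under 0.05 with a higher level was found for 3 of 10 and 4 of 10 probe sets, 2 of them of Glud1 at each dose, against 8.40% and 4.72% of all varying probe sets. Glud1, glutamate dehydrogenase, which releases ammonia from glutamate, read 11.70, 11.82, 11.94 and 11.77 log2 in control livers, 11.96, 11.96, 11.98 and 11.91 in 0.1% wakame livers and 11.95, 12.02, 12.03 and 11.93 in 1% wakame livers on probe set 1387878_at. Control 3 alone overlapped the wakame livers. The difference from control was 0.18 ± 0.05 log2 with 1% wakame and 0.15 ± 0.05 with 0.1% wakame (limma, adjusted p = 0.125 and 0.333), and the second probe set stood at 0.28 ± 0.09 and 0.20 ± 0.09 (adjusted p = 0.131 and 0.412).

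In the same list Gpt2, a mitochondrial alanine aminotransferase, was at 0.25 ± 0.11 log2 with 1% wakame and 0.27 ± 0.11 with 0.1% wakame against control (limma, adjusted p = 0.242 and 0.370). Aspg, an asparaginase, was at 0.41 ± 0.16 with 0.1% wakame against control and at −0.46 ± 0.16 with 1% against 0.1% wakame (adjusted p = 0.378 and 0.636). Amino acid and ammonium transporters had 5 of 14 genes varying, with medians of 0.0090 and 0.21 log2 for 1% and 0.1% wakame against control and 0 of 5 at an unadjusted p under 0.05. In histidine, serine, glycine and proline breakdown 7 of 16 genes varied, and Gnmt, which methylates glycine, was at 0.53 ± 0.20 with 1% wakame (adjusted p = 0.205), with no overlap with control. Of 17 genes of ornithine, proline, polyamine and serine synthesis 4 varied. Azin1, which protects ornithine decarboxylase from its antizyme, was at −0.45 ± 0.12 with 1% wakame (adjusted p = 0.0812), with no overlap with control, and at −0.32 ± 0.12 for 1% against 0.1% wakame (adjusted p = 0.646). Of all varying probe sets, 5.22% lay higher and 6.05% lower with 1% wakame than in control livers without overlap.

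Glul marks the hepatocytes around the central vein, so other genes of that zone were set beside it. The list of these genes left out the enzymes described above, Oat among them, and the zone of Oat was not measured here. Against control, Oat stood at 0.09 ± 0.56 log2 with 1% wakame and 1.06 ± 0.56 with 0.1% wakame. Across all livers Oat and Glul gave r = 0.17 and rho = −0.04. Of 20 listed genes 17 were found under a single symbol and 11 varied, with 13 probe sets. Of these, 12 of 13 lay higher with 1% wakame than in control livers, with a median of 0.33 log2, and 9 of 13 with 0.1% wakame, with a median of 0.23. Of all varying probe sets, 44.9% and 44.1% lay higher. The probe sets of the list share livers, so they are not separate evidence. Control 1 and control 4, the lowest livers on Glul, were also the lowest control livers for Gulo, Tbx3, Cyp2e1, Lect2, Rgn, Axin2 and Cyp7a1. They were not for Cyp27a1, Nr1i3, Znrf3 and Cyp1a2. The part of these livers in the counts was not tested. With the Gapdh covariate, 11 of 13 lay higher with 1% wakame, with a median of 0.35. An unadjusted p under 0.05 with a higher level was found for 4 of 13 and 3 of 13, against 8.40% and 4.72% of all. With 1% wakame Cyp27a1, of bile acid synthesis, was at 0.40 ± 0.12 log2 (limma, adjusted p = 0.123), the xenobiotic receptor Nr1i3 at 1.16 ± 0.41 (0.175), Znrf3, an inhibitor of Wnt receptors, at 0.22 ± 0.08 (0.180) and Tbx3, a transcription factor, at 0.78 ± 0.33 (0.241). The probe set that lay lower was that of Axin2, a direct target of beta-catenin, at −0.02 (adjusted p = 0.968). With 0.1% wakame Cyp7a1, of bile acid synthesis, was at 1.49 ± 0.56 (adjusted p = 0.357), Cyp2e1, of ethanol oxidation, at 0.90 ± 0.35 (0.370) and Cyp27a1 at 0.27 ± 0.12 (0.434). The 4 probe sets that lay lower with 0.1% wakame were those of Axin2, at −0.25 (limma, adjusted p = 0.651), Gulo, at −0.02 and −0.19, and Znrf3, at −0.0017. Znrf3 was at 0.22 ± 0.08 for 1% against 0.1% wakame (adjusted p = 0.636).

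Genes listed for the portal zone, a list that left out the 10 enzymes, lay on both sides. Of 18 varying probe sets of 15 genes, 9 lay higher and 9 lower with 1% wakame than in control livers, with a median of 0.01 log2, and 12 of 18 lay higher with 0.1% wakame, with a median of 0.02. Over all varying probe sets 44.9% and 44.1% lay higher. Pck1, of gluconeogenesis, was at 0.57 ± 0.22 log2 with 1% wakame and 0.73 ± 0.22 with 0.1% wakame (limma, adjusted p = 0.202 and 0.223). It read 11.82, 12.71, 13.04 and 12.84 log2 in control livers, control 1 again the lowest, 13.26 to 13.42 in 0.1% wakame livers and 13.02 to 13.36 in 1% wakame livers, so control 3 overlapped the 1% group only. With 0.1% wakame, 2.50% of all varying probe sets lay above control without overlap. Igfals, which binds growth factor complexes, was at −0.20 ± 0.09 with 1% wakame (adjusted p = 0.257). Tat, tyrosine aminotransferase, was at −1.81 ± 0.48 for 1% against 0.1% wakame (adjusted p = 0.498).

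**Figure D4:**
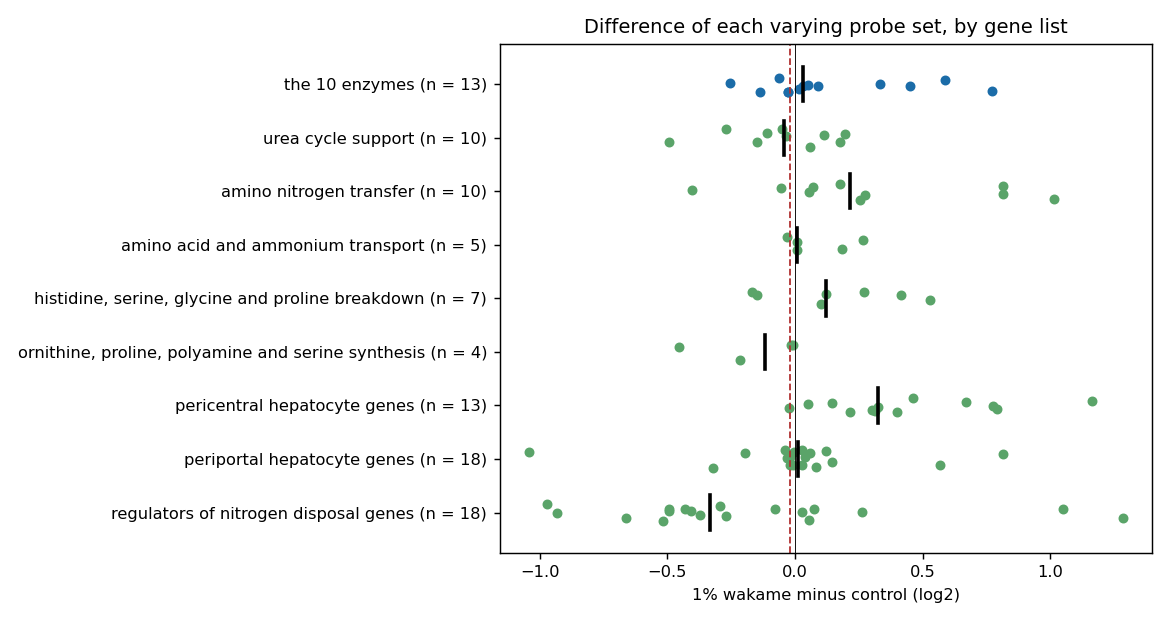
Difference of 1% wakame minus control (log2, horizontal axis) for each varying probe set of the 10 enzymes and of 8 gene lists, with the number of probe sets beside each name. Thick bars are medians and the dashed line is the median of all 3240 varying probe sets, −0.02; the pericentral list has a median of 0.33, and that of the regulators, −0.33, includes 4 probe sets each of Cebpa and Crem (−0.12 with each gene counted once).

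A list of regulators of nitrogen disposal genes, with Igfbp1, a secreted binding protein, added as a readout of insulin, had 12 of 20 genes varying. With each gene counted once, at the mean over its probe sets, 6 lay higher and 6 lower than control with 1% wakame, with a median of −0.12 log2. With 0.1% wakame 6 lay higher and 6 lower as well, with a median of −0.01. Counted by probe set, 12 of 18 lay lower at each dose (medians −0.33 and −0.06), and 8 of the 18 belong to Cebpa and Crem, with 4 each. Klf15, a transcription factor that in mice controls amino acid breakdown and Otc, read 8.55, 9.26, 9.57 and 8.94 log2 in control livers, 10.31, 9.87, 10.01 and 11.01 in 0.1% wakame livers and 10.06, 10.29, 9.72 and 10.45 in 1% wakame livers. Both wakame groups lay above every control liver, as in 5.22% of all varying probe sets for 1% and 2.50% for 0.1% wakame. The difference from control was 1.05 ± 0.28 log2 with 1% wakame and 1.22 ± 0.28 with 0.1% wakame (limma, adjusted p = 0.0878 and 0.190). Otc, in these livers, stood at −0.06 and 0.03 log2 as given above.

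No gene of that list passed the test, Klf15 included. With 1% wakame against control, Atf4, which drives amino acid stress genes, was at −0.49 ± 0.12 log2 (limma, adjusted p = 0.0703). The cAMP-responsive factors Creb1 and Crem were at −0.52 ± 0.18 and −0.41 ± 0.15 (adjusted p = 0.181 and 0.189). Of 4 Creb1 probe sets 1 varied. Likewise 1 of 3 varied for Klf15 and for Hnf4a, and 1 of 2 for Nr3c1. In the lists above, 1 of 3 varied for Azin1, 1 of 4 for Tbx3 and 1 of 2 for Gpt2. The other varying probe sets of Crem stood at −0.43, −0.37 and −0.08 with 1% wakame (limma, adjusted p = 0.321, 0.204 and 0.687). Igfbp1, a fasting-induced gene that insulin lowers, was at 2.71 ± 0.69 with 0.1% wakame against control (adjusted p = 0.196) and at 1.28 ± 0.69 with 1% wakame (adjusted p = 0.350). It read 10.99, 10.49, 10.03 and 11.51 log2 in 0.1% wakame livers, against 6.45, 8.12, 9.71 and 7.89 in control livers. All 4 livers on 0.1% wakame thus lay higher, as in 2.50% of all varying probe sets in that comparison. Hnf4a, a hepatocyte factor, was at 0.23 ± 0.09 with 0.1% wakame against control (adjusted p = 0.379). Nr3c1, the glucocorticoid receptor, was at −0.44 ± 0.12 for 1% against 0.1% wakame, with no overlap (adjusted p = 0.514), where 3.77% of all varying probe sets did not overlap (1.82% higher, 1.94% lower with 1% wakame). Crem, on a second probe set, was at −0.32 ± 0.14 there (adjusted p = 0.724). What the rats had eaten before killing was not given, and its part in these values was not tested.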

How the data were processed

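Liver RNA of 12 rats was measured on an Affymetrix-type 3-prime expression array. The authors deposited a table of log2 values, 1 column per array; that scale is read off the values (3.15 to 14.61), and how background, normalization and summarisation were handled is not given in the sources used here. Version 2.7.2 of R is named per the submitters' processing notes. Of 31099 probe sets, 57 controls were left out, and 27802 (89.6%) with an SD of at most 0.01 over the 12 arrays were treated as unmeasured. A flat value is not evidence that RNA did not differ.

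Diets came from the sample titles. Differences were tested with limma 3.58.1 in R 4.3.3: a mean per diet over all 12 arrays, moderated variances with a trend, Benjamini-Hochberg adjustment over 3240 probe sets, two-sided, threshold 0.05. SE and 95% intervals come from that fit. It was also run on simulated independent noise, which cannot show how it behaves where a liver moves many probe sets together. Gene symbols came from the platform annotation, which can be old; lists were matched by RefSeq gene identifier. The members, lists and tests were chosen with earlier results of these data known. All 10 members are described. List genes are named where unadjusted p was under 0.05, up to 4 per list and comparison. Axin2, Gulo, Znrf3 with 0.1% wakame, other probe sets of named genes and Igfbp1 with 1% wakame were added after their values were seen. Alternatives were the inclusion of flat probe sets, an SD limit of 0.1, no trend, median-shifted arrays, no dim probe sets, the replicate number as a block, each array left out, and, added after seeing the data, a Gapdh 3-prime to 5-prime covariate and, for the gene lists, each gene counted once.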

Additional observations from a re-analysis of the deposited data

Results flagged for a closer look

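A single liver stood apart from the rest of its diet for Asl on probe set 1367754_s_at. Control 1 read 9.59 log2 and the other control livers lay between 10.18 and 10.23, so the gap took 0.932 of the range of the 4 values, more than Dixon's test allows for 4 values at its 95% level. The second Asl probe set also had its lowest control value in control 1, at 9.38 log2. Of 39 groups of 4 livers tested over the 13 probe sets, 1 was picked out, and chance picks out about 1 in 20.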

How the results depend on the processing

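None of the 13 member probe sets passed the threshold under any alternative run (246 values per comparison; lowest adjusted p, limma, 0.0677, 0.363 and 0.590 for 1% wakame against control, 0.1% wakame against control and 1% against 0.1% wakame). Over all probe sets, the counts called in these comparisons were 54, 2 and 0. They became 9, 5 and 6 with flat probe sets included, and 4 for 1% wakame against control with the Gapdh covariate, which was chosen after seeing the data. They became 1 for 0.1% wakame against control with arrays shifted to the same median. With the replicate number as a block they became 12 and 0 in the first 2 comparisons. The labels do not say that numbers pair rats, and deviations of same-numbered livers correlated at −0.12 to 0.09 (0 of 12 pairs over 0.1). Leaving out single arrays gave 7 to 49, 0 to 8 and 0 to 1 calls, lowest in the first without 1% wakame 2 (7), control 2 (8), control 4 (9), 1% wakame 4 (11) or control 1 (13).

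Signs turned for 15 of 39 member differences, 37 of 41 times on leaving out an array, and the cause was not tested. For 1% wakame against control the lowest and highest differences on leaving out an array were −0.014 and 0.037 for Cps1 1384334_at, −0.18 and 0.081 for Asl 1367754_s_at, −0.14 and 0.22 for Asl 1368916_at, −0.074 and 0.12 for Arg1, −0.18 and 0.12 for Gls2, −0.28 and 0.58 for Oat and −0.42 and 1.07 for Sds. For 0.1% wakame against control they were −0.055 and 0.15 for Cps1 1370151_at, −0.040 and 0.077 for Otc, −0.17 and 0.043 for Ass1 and −0.040 and 0.24 for Gls2. For 1% against 0.1% wakame they were −0.27 and 0.051 for Gls2 and −0.16 and 0.10 for Hal. The Gapdh covariate gave 0.0052 for Otc and −0.19 for Oat (1% wakame against control), and 0.023 for Arg1 and 0.10 for Hal (1% against 0.1% wakame).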
